A study of Mus musculus with 24 samples.

Results

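The genes described here are 10 mouse genes that mark or drive the switch of epithelial cells to a mesenchymal state. They were chosen by name and matched exactly to the gene column of the expression table: *Cdh1* and *Epcam* as epithelial genes, *Snai1*, *Snai2*, *Zeb1*, *Zeb2* and *Twist1* as transcription factors, and *Cdh2*, *Vim* and *Fn1* as mesenchymal genes. All 10 were found, among 25965 entries. The study followed male C57/Bl6 mouse embryonic stem cells (mESCs) by RNA-seq of whole cultures while they left pluripotency. Every culture, controls included, was virally transduced with a short hairpin on day 2 of differentiation and put under puromycin on day 3, and libraries were made from days 4, 5, 6 and 7. The hairpins Smarcc1.6 and Smarcc1.7 were directed against *Smarcc1*, the hairpins Smarca4.4 and Smarca4.6 against *Smarca4*, and the control hairpin (Nons) was nonsilencing. There was 1 library per hairpin and day, or 8 libraries with *Smarcc1* knockdown, 8 with *Smarca4* knockdown and 4 of Nons replicate 1. A further Nons series, replicate 2 with 4 samples, was not analysed here. The variation among control cultures was therefore not measured. *Smarca4* encodes the ATPase of the BAF chromatin remodelling complex and *Smarcc1* one of its core scaffold subunits. A hairpin lowers its target without removing it, and 1 genotype label names the *Smarca4* libraries as Smarcc knockdown, whereas their titles, which were followed, name Smarca4.

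Epithelial cells adhere through E-cadherin and sit in sheets, whereas mesenchymal cells are loosely attached, motile and rich in vimentin filaments and fibronectin matrix. Transcription factors of the Snail, Zeb and Twist families drive the passage between these states, in large part by repressing E-cadherin and other epithelial genes. Embryonic stem cells carry E-cadherin and Epcam as pluripotent cells, and the switch takes place in the embryo at gastrulation.

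Values are rpm, a gene's reads per fixed total of reads counted in its library, and were taken from log2 rpm as deposited. Genes with 0 reads all share a library's lowest value, which stands for 0.9 of a read, and whole reads and totals were worked out from it. Library totals in Nons spanned 15717152 to 27472885 reads with a median of 19256702. In the *Smarcc1* group they spanned 15754138 to 22472113 (median 21756652), and in the *Smarca4* group 6829596 to 23551166 (median 17787889), the smallest being Smarca4.4 on day 5. Tests used limma on log2 rpm with Benjamini-Hochberg adjustment over 13296 genes, and a gene was called at an adjusted p-value below 0.05. The 2 hairpins of a gene and day give the estimate of spread (8 residual degrees of freedom), and the labels do not say that they were separate cultures beyond the hairpin, so p-values measure the spread between these libraries, which may be partly technical. Knockdown contrasts were averaged over the 4 days. In whole cultures, fewer cells of a type and less RNA per cell cannot be told apart.

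The targets were read first as a check of the labels. In Nons, *Smarcc1* stood at 450.6, 259.8, 127.1 and 171.6 rpm on days 4, 5, 6 and 7, and in *Smarcc1* knockdown at 43.6 rpm (lowest), 78.7 rpm (median) and 192 rpm (highest). It was below same-day Nons in 8 of 8 *Smarcc1* knockdown libraries, although the ranges overlapped across days. The log2 change was -1.33 (SE 0.205, limma adjusted p = 0.00115). *Smarca4* stood at 222, 151, 90.4 and 160 rpm in Nons and at 19.5 rpm (lowest), 46.5 rpm (median) and 62.9 rpm (highest) in *Smarca4* knockdown. These ranges did not overlap, all 8 *Smarca4* knockdown libraries lying below all 4 Nons libraries. The log2 change was -1.79 (SE 0.288, limma adjusted p = 0.00277), and leaving out hairpin Smarca4.6 gave -1.59 (limma adjusted p = 0.0685). Neither target was called under the other hairpins, with *Smarca4* at 0.27 in *Smarcc1* knockdown and *Smarcc1* at 0.21 in *Smarca4* knockdown.

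The stem cell label was compared with markers. All 10 pluripotency genes examined were detected in all 20 libraries, with *Pou5f1* at 131 to 1607 rpm. Their summed level in Nons was 4130, 3536, 3106 and 1001 rpm on days 4 to 7, and it spanned 1367 to 5358 rpm in *Smarcc1* knockdown (median 3734) and 1201 to 4884 rpm in *Smarca4* knockdown (median 3392). *Dppa5a* was the most abundant of them in 10 of 20 libraries. Between days 4 and 7 the level of 8 of these 10 genes fell and 0 rose, beside 28.8% and 35.7% of all genes.

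Of the 10 switch genes, 8 passed the filter of a mean log2 rpm of at least 0, and *Snai2* and *Zeb2* did not. In *Smarcc1* knockdown against Nons, 3 of the 8 were called, 1 higher and 2 lower, while 10.6% of all genes were called (7.54% higher, 3.08% lower). In *Smarca4* knockdown 1 of 8 was called, lower, with 6.71% of all genes called (4.75% higher, 1.96% lower). Set directly against each other, the knockdowns differed in 1 of 8, higher in *Smarcc1* knockdown, with 4.09% of all genes called (2.55% higher, 1.54% lower). With hairpin series entered as a replicate block (correlation 0.217) these counts of 3, 1 and 1 were 1, 0 and 1. A hairpin series is all libraries of the same hairpin over the days. With a hairpin left out the counts were 1 to 3, 0 to 1 and 0 to 1. Over all genes the calls numbered 1412, 892 and 544, with the block 605, 258 and 105, and with a hairpin left out 843 to 1288, 277 to 656 and 49 to 263. Without the day 5 library of Smarca4.4 the direct contrast called 3 switch genes and 1067 of all genes, against 1 and 544. The contrasts with Nons share the Nons libraries. The median log2 change of the 8 genes was -0.326 in *Smarcc1* knockdown and -0.0318 in *Smarca4* knockdown, beside 0.0643 and 0.0644 over all genes tested, and -0.0589 in the direct contrast, beside 0.000349.

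The course of differentiation, averaged over Nons and both knockdowns, moved more of the genes than either knockdown, and more of the whole transcriptome. From day 4 to day 7, 6 of 8 were called (4 higher, 2 lower), near the background of 64.5% of all genes (35.7% higher, 28.8% lower). In the first step, day 4 to day 5, 6 of 8 were called (2 higher, 4 lower), against 38.7% of all genes (19.5% higher, 19.2% lower). With a hairpin left out this count was 3 to 5, with 3179 to 5030 of all genes called beside 5147. From day 5 to day 6 only *Zeb1* was called, lower, with 32.3% of all genes called (15.3% lower). From day 6 to day 7, 2 of 8 were called, both higher, with 27.5% of all genes called (16.9% higher). With a hairpin left out this count was 1 to 3 and all genes called 1061 to 4031 beside 3656, and with the block 4 and 5112. The median change of the 8 genes from day 4 to day 7 was 0.663, beside 0.0828 over all genes. The change from day 4 to day 7 differed from that of Nons for 0 of 8 genes in either knockdown by limma, with 0.459% of all genes called for *Smarcc1* and 0.0827% for *Smarca4*. At an unadjusted p under 0.05 it differed for 1 and 0 of the 8, and limma-voom on the recovered reads called 0 and 0.

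Scaling altered the balance of calls over all genes. Of the genes called in *Smarcc1* knockdown 71% were higher, and 53.7% after quantile normalization, and in *Smarca4* knockdown 70.7%, 52.9% after quantile normalization and 60.5% after centring each library on its median gene. After quantile normalization 600 genes were higher and 518 lower in *Smarcc1* knockdown, beside 1003 and 409. In the direct contrast they were 292 and 255, beside 339 and 205. Called genes from day 4 to day 7 were 55.4% higher, and 46.1% after centring or 47.9% after quantile normalization. Those from day 5 to day 6 were 52.6%, 46.7% and 48.8% higher. The higher and lower shares of all genes set beside counts in the knockdown contrasts and over these intervals therefore depend on the scaling. Called genes from day 6 to day 7 were 61.5% higher, and 38.2% after centring or 44.3% after quantile normalization. For the change from day 4 to day 7 in *Smarcc1* knockdown the share was 96.7%, and 83.3% of 6 genes after quantile normalization. In *Smarca4* knockdown it was 90.9%, and 75% of 4 genes with voom. Centring moved the median log2 change of all genes from 0.083 to -0.093 for day 7 against day 4, from 0.15 to -0.048 for day 7 against day 6, and from 0.14 to 0.015 for the change from day 4 to day 7 in *Smarcc1* knockdown. The signs given below for called switch genes held under centring and quantile normalization.

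**Figure D1:**
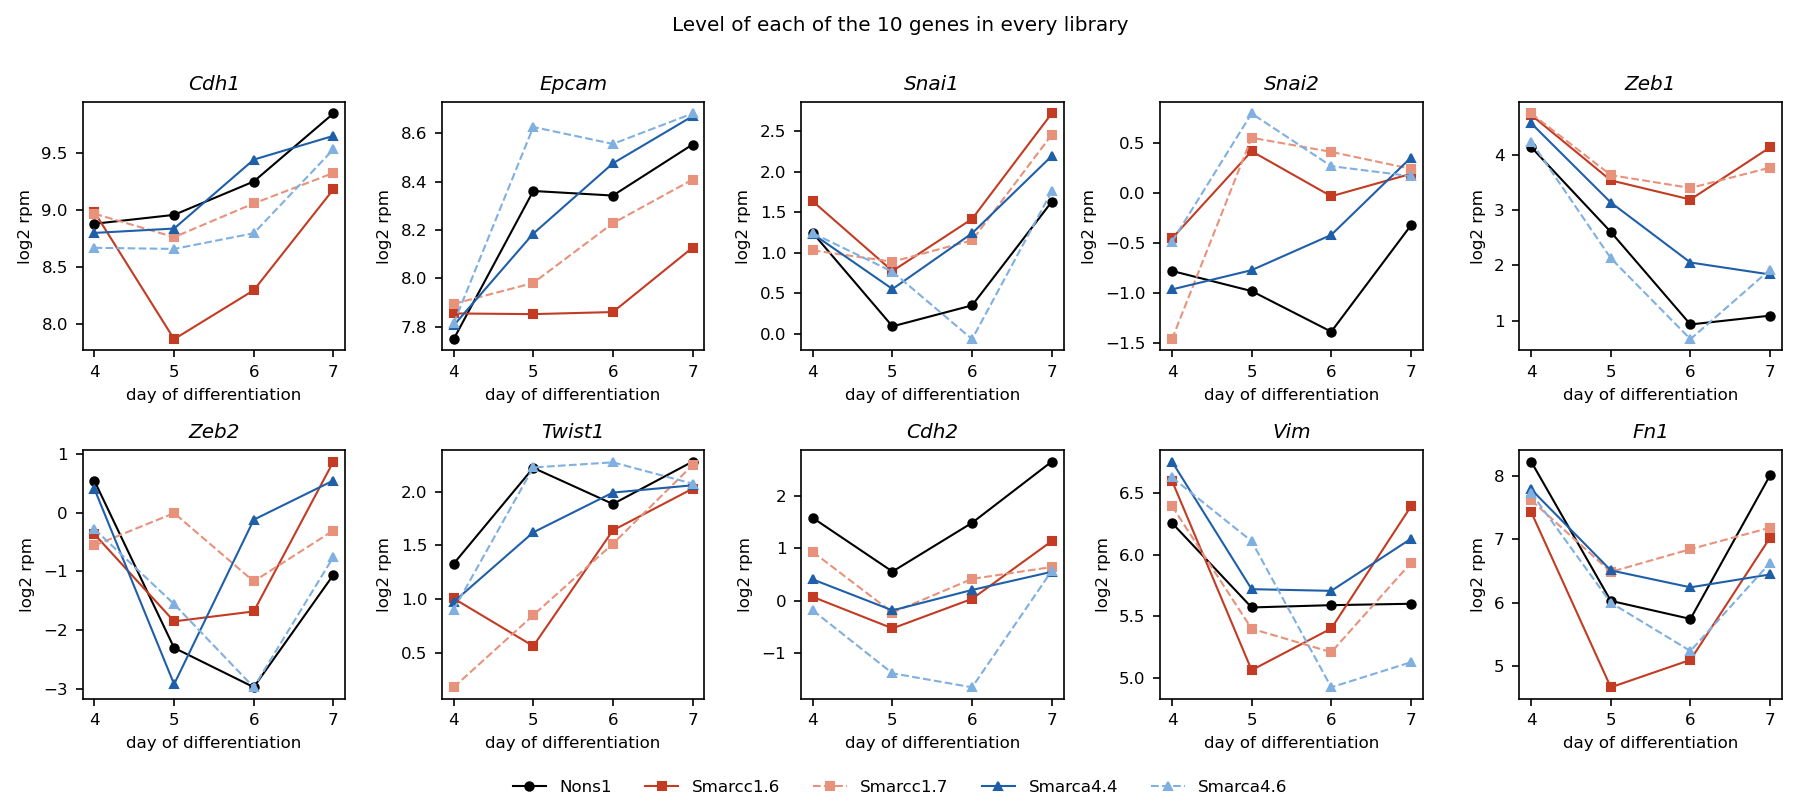
Level of each of the 10 genes in all 20 libraries, as log2 rpm (vertical axes, each with its own range) by day of differentiation. Each line is 1 hairpin series and each point 1 library (Smarca4.4 on day 5, with 0 *Zeb2* reads, is drawn at its lowest value); *Zeb1* went from 17.6 to 2.13 rpm in Nons and was at 9.12 rpm or above in both *Smarcc1* hairpins, and *Cdh2* was highest in Nons on each day.

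*Cdh1* encodes E-cadherin, the calcium-dependent adhesion molecule of epithelial junctions, and lies on chromosome 8 (106603351 to 106670246, plus strand, GRCm38). It stood at 471, 497, 609 and 920 rpm in Nons on days 4 to 7. The 8 *Smarcc1* knockdown libraries ranged from 234 to 641 rpm (median 503) and the 8 *Smarca4* knockdown libraries from 405 to 803 rpm (median 452). The groups overlapped, with Smarcc1.6 on days 5 and 6 lowest of all and Nons on day 7 highest. Neither knockdown was called: the log2 difference from Nons was -0.43 (95% interval -0.83 to -0.02, limma adjusted p = 0.193, lower than same-day Nons in 6 of 8 libraries) for *Smarcc1* and -0.18 (-0.59 to 0.22, limma adjusted p = 0.651, lower in 7 of 8) for *Smarca4*. The *Smarcc1* value differed between hairpins: leaving out Smarcc1.7 gave -0.65 (limma adjusted p = 0.0462, against 0.063 to 0.443 over 10 alternative settings) and leaving out Smarcc1.6 gave -0.20 (0.418).

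*Cdh1* rose over the course. Its log2 change from day 4 to day 7 was 0.70 (SE 0.204, limma adjusted p = 0.00891) and 5 of 5 series went up. The same value had an adjusted p of 0.0501 when Smarca4.6 was left out (0.00256 to 0.0142 over 10 settings). No single step was called, the last being the steepest at 0.55 (limma adjusted p = 0.0617).

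*Epcam*, the epithelial cell adhesion molecule, lies on chromosome 17 (87635979 to 87651106, plus strand). In Nons it stood at 215, 329, 325 and 376 rpm on days 4 to 7, in *Smarcc1* knockdown between 231 and 340 rpm (median 245) and in *Smarca4* knockdown between 224 and 411 rpm (median 366). On day 4 the 5 series lay close together at 215 to 238 rpm, and from day 5 on both *Smarcc1* hairpins were below Nons and below both *Smarca4* hairpins. Against Nons the log2 difference was -0.23 in *Smarcc1* knockdown (limma adjusted p = 0.28, lower in 6 of 8 libraries) and 0.10 in *Smarca4* knockdown (limma adjusted p = 0.701, higher in 7 of 8). The direct difference between the knockdowns was -0.33 (SE 0.0951, limma adjusted p = 0.0837) and did not pass. Leaving out the day 5 library of Smarca4.4 gave -0.38 (limma adjusted p = 0.0229, the lowest over 10 settings, which reached 0.334).

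*Epcam* rose from day 4 to day 7 by a log2 change of 0.69 (SE 0.127, limma adjusted p = 0.000385, up in 5 of 5 series). The step from day 4 to day 5 was 0.42 (limma adjusted p = 0.0215, up in 4 of 5, and 0.00554 to 0.0465 over 10 settings). This step was no longer called without Smarcc1.6 (adjusted p = 0.0552), without Smarcc1.7 (0.0532) or without Smarca4.6 (0.126).

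Promoter sequence was read for the members found in the RefSeq promoter table (GRCm38.p6), as the 250 bases before each start in that table. These starts can differ from those of the gene spans printed here: the *Vim* window and 3 of the 4 *Zeb2* windows lie inside the spans. *Epcam*, *Snai1*, *Vim*, *Twist1* and *Zeb2* were read, 5 of 10 genes with 8 windows, and the promoters of the other 5 were not analysed here. The letters searched were CAGGTG and its reverse complement CACCTG, the form of E-box that Snail and Zeb factors are known to bind, on both strands; every such match is also a match to the wider E-box CANNTG. Over 32851 windows of the same length, 17.2% held CAGGTG or CACCTG, 2.06% held it more than once, and 66.2% held CANNTG. *Epcam* held 2 matches, 187 and 19 bases before the start, and *Snai1* held 1, at 126 bases before it. The windows of *Vim*, *Twist1* and *Zeb2* (4 windows) held no CANNTG. The pair of windows with matches is shown, plus strand, from chr17:87635729-87635978 for *Epcam* and chr2:167537945-167538194 for *Snai1*, with the matched letters in capitals. A match describes these letters alone and no binding was measured.
Epcam: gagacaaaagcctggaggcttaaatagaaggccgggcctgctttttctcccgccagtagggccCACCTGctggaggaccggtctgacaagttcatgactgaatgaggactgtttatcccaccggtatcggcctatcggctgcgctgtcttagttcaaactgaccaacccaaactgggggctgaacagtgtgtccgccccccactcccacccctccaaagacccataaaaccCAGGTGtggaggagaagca
Snai1: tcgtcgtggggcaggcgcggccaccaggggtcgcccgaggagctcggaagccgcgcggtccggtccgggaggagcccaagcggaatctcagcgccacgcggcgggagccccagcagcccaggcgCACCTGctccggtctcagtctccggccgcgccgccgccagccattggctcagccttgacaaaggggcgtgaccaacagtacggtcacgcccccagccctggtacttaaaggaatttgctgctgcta

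Among the transcription factors, *Zeb1* had the lowest adjusted p of the 8 genes in *Smarcc1* knockdown. It encodes a zinc finger and homeodomain repressor of *Cdh1*, on chromosome 18. In Nons *Zeb1* fell from 17.6 rpm on day 4 to 6.08, 1.91 and 2.13 rpm on days 5, 6 and 7. In *Smarcc1* knockdown it ran from 9.12 to 26.8 rpm (median 13.0), and in *Smarca4* knockdown from 1.59 to 23.7 rpm (median 4.26). All 8 *Smarcc1* knockdown libraries were above Nons of their day and above both *Smarca4* libraries of their day, while pooled over days the ranges overlapped.

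As a share of same-day Nons, *Zeb1* stood higher on each later day in both *Smarcc1* hairpins. On day 4 *Zeb1* in Smarcc1.6 and Smarcc1.7 was at 149.5% and 152% of Nons, on day 5 at 191% and 204%, on day 6 at 478% and 552%, and on day 7 at 822% and 638%. In absolute terms Nons held 483, 120, 30 and 40 *Zeb1* reads on the 4 days, and the *Smarcc1* libraries 166 to 591. The log2 change averaged over days was 1.7 (SE 0.246, 95% interval 1.17 to 2.23, limma adjusted p = 0.000753, higher in 8 of 8 libraries). Its adjusted p lay between 0.000223 and 0.00638 over 10 alternative settings and between 0.00103 and 0.017 with a hairpin left out. The 2 *Smarcc1* hairpins lay close, with a standard deviation of 0.153 log2 units within a day.

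*Zeb1* in *Smarca4* knockdown was not called, at 0.38 (SE 0.246, limma adjusted p = 0.446, higher in 6 of 8). Here Smarca4.4 was above Nons on all days (135% to 217%), whereas Smarca4.6 was at 107%, 72.0%, 83.2% and 178%. The direct contrast of the knockdowns gave 1.32 (SE 0.201, limma adjusted p = 0.00317, above both same-day *Smarca4* libraries in 8 of 8), and leaving out Smarcc1.6 gave 1.32 with an adjusted p of 0.0835 (0.00102 to 0.0247 over 10 settings). Leaving out Smarcc1.7 gave 1.33 with an adjusted p that rounds to 0.05, at the threshold.

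Over the course *Zeb1* was the switch gene with the largest change. Averaged over the groups it fell by 2.12 log2 units from day 4 to day 7 (SE 0.268, limma adjusted p = 1.66e-05, lower in 5 of 5 series). The step from day 4 to day 5 was -1.48 (limma adjusted p = 0.0011) and that from day 5 to day 6 was -1.08 (limma adjusted p = 0.00894), both lower in 5 of 5. The latter had an adjusted p of 0.0522 without Smarcc1.6 (0.00255 to 0.0266 over 10 settings). The last step was not called (0.44, limma adjusted p = 0.217, up in 4 of 5). The difference between *Smarcc1* knockdown and Nons in the change from day 4 to day 7 was 2.26 (95% interval 0.76 to 3.77, unadjusted p = 0.00649, limma adjusted p = 0.242) and did not pass, nor in any of 9 alternative settings (0.0956 to 0.541). At most 1.9% of the exon bases of *Zeb1* overlap the gene *Gm10125* on the other strand, and use of strand in counting is not stated.

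*Twist1*, a basic helix-loop-helix factor of mesoderm and neural crest, lies on chromosome 12 (33957671 to 33959817, plus strand). It stood at 2.51, 4.66, 3.69 and 4.85 rpm in Nons, at 1.13 to 4.74 rpm in *Smarcc1* knockdown (median 2.43) and at 1.87 to 4.83 rpm in *Smarca4* knockdown (median 4.07), from 21 to 110 reads a library. The *Smarcc1* libraries were below same-day Nons in 8 of 8, at 31.7% and 38.7% of it on day 5 and 84.0% and 97.8% on day 7, and the pooled ranges overlapped. The log2 change in *Smarcc1* knockdown was -0.67 (SE 0.194, limma adjusted p = 0.0433). This call was lost with hairpin series entered as a replicate block (limma adjusted p = 0.218). It was also lost without a filter on low genes (0.0873) and with group plus day as the model (0.0616). Leaving out Smarcc1.6 (0.0703), Smarcc1.7 (0.173), Smarca4.4 (0.096) or Smarca4.6 (0.0961) ended it as well. Over 9 settings its adjusted p ran from 0.0168 to 0.218. In *Smarca4* knockdown the value was -0.16 (limma adjusted p = 0.709, lower in 5 of 8), and the direct difference was -0.51 (limma adjusted p = 0.102), or -0.59 and 0.0401 without the day 5 library of Smarca4.4 (up to 0.443 over 9 settings).

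*Twist1* rose over the days. Its log2 change from day 4 to day 7 was 1.21 (SE 0.211, limma adjusted p = 0.000258, up in 5 of 5 series). Over 9 settings this change ran from 0.665 to 1.26 (limma adjusted p up to 0.0214). The first step was 0.66 (limma adjusted p = 0.0263, up in 4 of 5; 0.0119 to 0.164 over 9 settings), no longer called without Smarcc1.7 (0.14), Smarca4.4 (0.0507) or Smarca4.6 (0.139), after quantile normalization (0.164) or without a filter (0.0599).

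*Snai1* encodes the Snail zinc finger repressor and lies on chromosome 2 (167538195 to 167542814, plus strand). Its level was 2.37, 1.06, 1.27 and 3.09 rpm in Nons, 1.71 to 6.59 rpm in *Smarcc1* knockdown (median 2.45) and 0.953 to 4.57 rpm in *Smarca4* knockdown (median 2.35), from 10 to 144 reads. Day 7 was the highest day in all 5 series, the groups overlapped, and the highest libraries were Smarcc1.6 and Smarcc1.7 on day 7. The log2 difference in *Smarcc1* knockdown was 0.68 (95% interval 0.16 to 1.20, limma adjusted p = 0.0989, higher in 7 of 8) and in *Smarca4* knockdown 0.29 (limma adjusted p = 0.568, higher in 5 of 8), neither called. Over 9 settings these values ran from 0.43 to 0.682 and from 0.112 to 0.313. With a hairpin left out they ran from 0.554 to 0.809 and from 0.096 to 0.477.

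*Snai1* dipped and then rose: the log2 change was -0.74 from day 4 to day 5 (limma adjusted p = 0.0398, down in 5 of 5), 1.32 from day 6 to day 7 (SE 0.262, limma adjusted p = 0.00409, up in 5 of 5 series) and 0.79 from day 4 to day 7 (SE 0.262, limma adjusted p = 0.0174, up in 5 of 5). The first of these was lost without Smarcc1.6 (0.19), Smarcc1.7 (0.0652), Smarca4.4 (0.052) or the day 5 library of Smarca4.4 (0.0615) and without a filter (0.0728), and ran from 0.00816 to 0.0728 over 9 settings. The last was 0.33 after quantile normalization (limma adjusted p = 0.272, the highest over 9 settings, the lowest being 0.00259) and was lost without Smarcc1.7 (0.0802).

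*Snai2*, the Slug repressor (chromosome 16, 14705852 to 14709395, plus strand), and *Zeb2*, the other Zeb repressor (chromosome 2, 44983634 to 45117395, minus strand), had few reads. *Snai2* had 4 to 41 reads a library, 0.382 to 0.799 rpm in Nons, 0.363 to 1.47 rpm in *Smarcc1* knockdown and 0.512 to 1.74 rpm in *Smarca4* knockdown, and was above same-day Nons in 7 of 8 libraries of either knockdown. Without a filter on low genes its log2 differences were 0.85 (limma adjusted p = 0.194) and 0.74 (limma adjusted p = 0.367). *Zeb2* had 0 to 40 reads a library. In Nons it went from 40 reads (1.46 rpm) on day 4 to 4, 2 and 9 reads on days 5, 6 and 7. In *Smarcc1* knockdown it had 6 to 40 reads (0.277 to 1.83 rpm), and in *Smarca4* knockdown 0 to 32 reads. The library with 0 reads was Smarca4.4 on day 5, whose depth allows up to 0.439 rpm by counting error alone, and the groups overlapped for both genes. At most 3.3% of the exon bases of *Zeb2* overlap the antisense gene *Zeb2os*. Without a filter the step of *Zeb2* from day 4 to day 5 was -1.87 (SE 0.576, limma adjusted p = 0.026, lower in 4 of 5). In this fit the library with 0 reads entered at its lowest value, and the other day 5 libraries had 4 to 21 *Zeb2* reads. The differences of *Zeb2* from Nons were 0.82 in *Smarcc1* knockdown (limma adjusted p = 0.534) and 0.49 in *Smarca4* knockdown (limma adjusted p = 0.674).

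**Figure D2:**
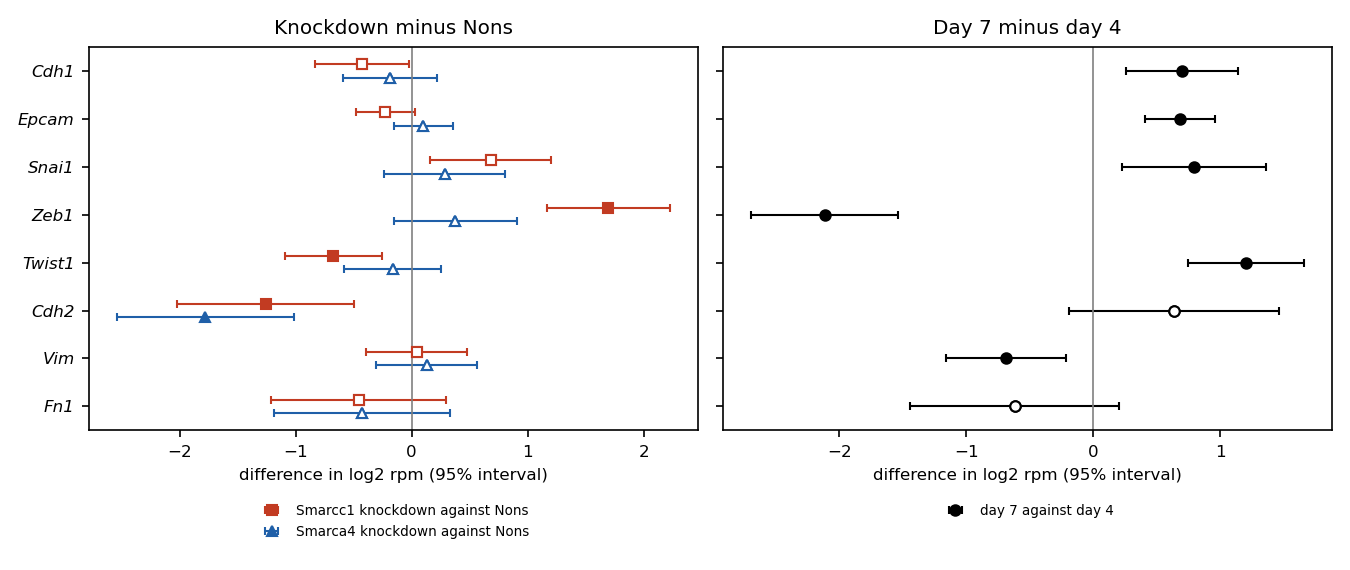
Difference in log2 rpm (horizontal axes) for the 8 switch genes tested, with 95% intervals: left, *Smarcc1* knockdown (squares) and *Smarca4* knockdown (triangles) minus Nons, averaged over days; right, day 7 minus day 4, averaged over groups. Filled symbols passed an adjusted p of 0.05; *Zeb1* was at 1.7 in *Smarcc1* knockdown and *Cdh2* at -1.26 and -1.78.

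*Cdh2* encodes N-cadherin, the cadherin that takes the place of E-cadherin in mesenchymal and neural cells, and lies on chromosome 18. It stood at 2.98, 1.47, 2.80 and 6.29 rpm in Nons on days 4 to 7 (82, 29, 44 and 118 reads). In *Smarcc1* knockdown it was at 0.693 to 2.20 rpm (median 1.19, 15 to 48 reads) and in *Smarca4* knockdown at 0.318 to 1.48 rpm (median 1.02, 5 to 32 reads). All 16 knockdown libraries were below Nons of their day, at 24.8% to 63.8% in *Smarcc1* and 11.4% to 59.8% in *Smarca4* knockdown, and pooled over days only the Nons value of day 5 fell within the knockdown ranges.

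The log2 change of *Cdh2* was -1.26 in *Smarcc1* knockdown (SE 0.352, limma adjusted p = 0.0374, lower in 8 of 8 libraries) and -1.78 in *Smarca4* knockdown (SE 0.352, limma adjusted p = 0.00945, lower in 8 of 8). With hairpin series entered as a replicate block neither was called (limma adjusted p = 0.15 and 0.0596, the highest over 9 settings, the lowest being 0.00505 and 0.00189). The *Smarcc1* call was also lost without Smarcc1.6 (0.127) or Smarcc1.7 (0.115), and the *Smarca4* call without Smarca4.6 (0.0622). The knockdowns did not differ from each other by the test (0.52, 95% interval -0.10 to 1.14, limma adjusted p = 0.418). With a hairpin left out this difference ran from 0.0654 to 0.973. Both contrasts with Nons rest on the same 4 Nons libraries. Over the days the log2 difference between days 7 and 4 was 0.64 (limma adjusted p = 0.161, up in 4 of 5 series), not called, and with 1 added to rpm it was 0.45 (limma adjusted p = 0.0389, the lowest over 9 settings, which reached 0.891).

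*Cdh1* exceeded *Cdh2* throughout. Per kb of exon, the ratio of *Cdh1* to *Cdh2* was 279, 598, 384 and 258 in Nons on days 4 to 7, 464 to 897 in *Smarcc1* knockdown and 594 to 2471 in *Smarca4* knockdown. The highest ratios were those of Smarca4.6 on days 5 and 6, where *Cdh2* had 9 and 5 reads.

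*Vim* encodes vimentin, the intermediate filament of mesenchymal cells, on chromosome 2 (13573927 to 13582826, plus strand). It stood at 76.6, 47.6, 48.2 and 48.5 rpm in Nons, 33.4 to 97.2 rpm in *Smarcc1* knockdown (median 51.7) and 30.3 to 108 rpm in *Smarca4* knockdown (median 60.9). Day 4 was the highest day of every series and the groups overlapped widely. Differences from Nons were 0.04 in *Smarcc1* knockdown (95% interval -0.39 to 0.48, limma adjusted p = 0.922, higher in 4 of 8) and 0.13 in *Smarca4* knockdown (-0.30 to 0.57, limma adjusted p = 0.781, higher in 6 of 8). The sign of the first changed on centring (-0.01), on quantile normalization (-0.01) and without Smarcc1.6 (-0.02), and that of the second without Smarca4.4 (-0.06).

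*Vim* fell by 0.69 log2 units from day 4 to day 7 (SE 0.219, limma adjusted p = 0.0145, lower in 5 of 5 series). Without Smarcc1.7 the change was -0.64 with an adjusted p of 0.0561 (0.00212 to 0.0176 over 10 settings). The step from day 4 to day 5 was -0.91 (limma adjusted p = 0.00631, lower in 5 of 5), and from day 6 to day 7 the difference was 0.39 (limma adjusted p = 0.182, up in 5 of 5).

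*Fn1* encodes fibronectin, an extracellular matrix protein, on chromosome 1 (71585523 to 71653171, minus strand). Its level was 298, 65.3, 53.6 and 257 rpm in Nons on days 4 to 7, 25.4 to 196 rpm in *Smarcc1* knockdown (median 122) and 37.8 to 220.5 rpm in *Smarca4* knockdown (median 89.1). Day 4 was the highest in every series, and Nons was above all 4 hairpins on days 4 and 7 but not on days 5 and 6. The differences from Nons were -0.46 in *Smarcc1* knockdown (95% interval -1.21 to 0.30, limma adjusted p = 0.487, lower in 6 of 8) and -0.43 in *Smarca4* knockdown (-1.18 to 0.33, limma adjusted p = 0.552, lower in 6 of 8). The *Smarcc1* hairpins lay apart on days 5 and 6, where Smarcc1.6 had 25.4 and 34.3 rpm and Smarcc1.7 had 89.6 and 115 rpm, and the difference was 0.03 without Smarcc1.6 and -0.94 without Smarcc1.7 (limma adjusted p = 0.0338, against 0.344 to 0.723 over 10 settings).

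*Fn1* fell and then rose within the window. The log2 change was -1.88 from day 4 to day 5 (SE 0.379, limma adjusted p = 0.00223, lower in 5 of 5 series) and 1.40 from day 6 to day 7 (SE 0.379, limma adjusted p = 0.019, higher in 5 of 5). The later step was no longer called without Smarca4.4 (0.0697) or Smarca4.6 (0.172), against 0.00535 to 0.0245 over 10 settings. Over the whole window the difference was -0.62 (limma adjusted p = 0.17, lower in 5 of 5), not called, but it passed after centring (-0.79, 0.0457), without Smarcc1.6 (0.0403) and without Smarcc1.7 (0.0422), with 0.0457 to 0.232 over 10 settings. At most 2.5% of its exon bases overlap the antisense gene *Apol7d*.

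Per kb of exon, the order of the genes by median level over the 20 libraries was *Epcam* (135 rpm per kb), *Cdh1* (109), *Vim* (11.1), *Fn1* (8.13), *Twist1* (2.09), *Snai1* (1.45), *Zeb1* (0.957), *Snai2* (0.44), *Cdh2* (0.165) and *Zeb2* (0.0319). The order differed by group, and in Nons alone the median of *Fn1* (13.79) was above that of *Vim* (10.2) and the median of *Cdh2* (0.359) above that of *Snai2* (0.269). The ranges of *Cdh1* and *Vim* did not overlap, and all other neighbours in the order did. *Epcam* was above *Cdh1* in 16 of 20 libraries, *Vim* above *Fn1* in 16 of 20, *Fn1* above *Twist1* in 20 of 20, *Twist1* above *Snai1* in 11 of 20, *Snai1* above *Zeb1* in 13 of 20, *Zeb1* above *Snai2* in 14 of 20, *Snai2* above *Cdh2* in 16 of 20 and *Cdh2* above *Zeb2* in 20 of 20. The places of *Twist1*, *Snai1* and *Zeb1* were therefore not separated beyond their spread.

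**Figure D3:**
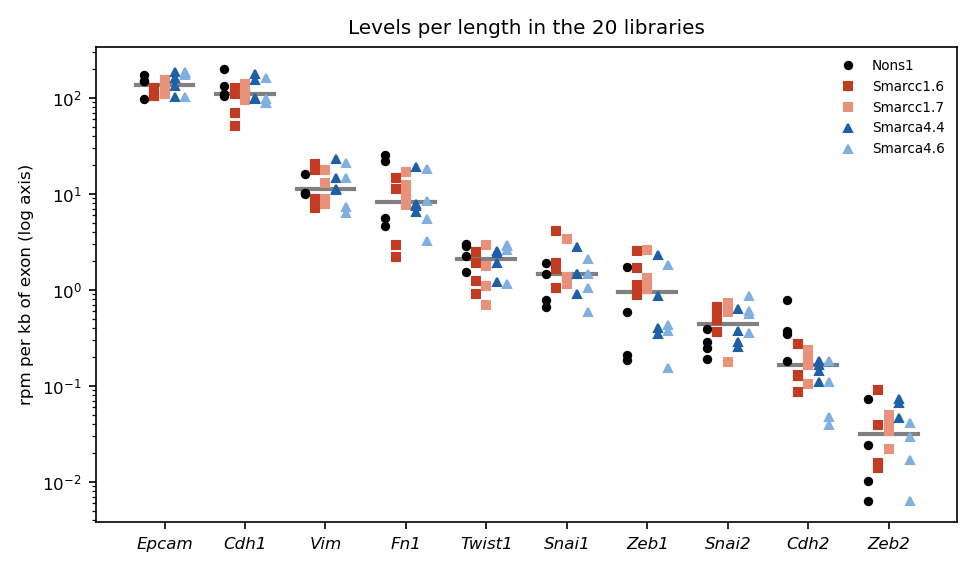
Rpm per kb of exon (log axis) of each gene in the 20 libraries, in order of the median (grey bars); each point is 1 library, and the library without *Zeb2* reads is not drawn. The pair of epithelial genes stood at 51.2 rpm per kb or more in all libraries, and the other 8 genes at 25.5 or less.

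Other epithelial genes were read from a list of 37 junction and identity genes, of which 36 were tested. In *Smarcc1* knockdown 1 rose and 10 fell (median log2 change -0.268, beside 0.0643 for all genes), where 7.54% of all genes rose and 3.08% fell. In *Smarca4* knockdown 7 rose and 2 fell (median 0.0896, beside 0.0644), where 4.75% of all genes rose and 1.96% fell. Set directly against each other, 0 were higher and 15 lower in *Smarcc1* knockdown (median -0.488, beside 0.000349), where 1.54% of all genes were lower. The count of 7 was 3 with hairpin series entered as a replicate block and 4 and 3 without Smarca4.4 and Smarca4.6. The count of 10 was 6 with the block and 7 to 8 with a hairpin left out. The count of 15 was 4 with hairpin series entered as a replicate block. It was 2 without Smarcc1.6, 9 without Smarcc1.7, 7 without Smarca4.4, 2 without Smarca4.6 and 17 without the small day 5 library of Smarca4.4. Over all genes the calls in the direct contrast numbered 544, and in the same order 105, 49, 263, 156, 88 and 1067. In *Smarca4* knockdown they numbered 892, and 258 with the block, 420 without Smarca4.4 and 277 without Smarca4.6. In *Smarcc1* knockdown they numbered 1412, and 605 with the block and 843 to 1288 with a hairpin left out. Genes named from this and later lists as higher or lower than Nons were picked for a large change with both hairpins on that side. Their counts of libraries on that side partly follow from this choice.

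The epithelial genes that fell in both knockdowns were *Krt19*, a keratin (log2 change -1.81 in *Smarcc1* knockdown, limma adjusted p = 0.000187, and -1.80 in *Smarca4* knockdown, 0.000492, lower in 8 of 8 each) and *Perp*, a desmosomal protein (-1.71, limma adjusted p = 8.74e-06, 8 of 8, and -1.20, 0.000394, 7 of 8). Among the others in *Smarcc1* knockdown, the apical polarity gene *Crb3* was at -1.02 (limma adjusted p = 0.00141) and the tight junction gene *Cldn6* at -0.99 (limma adjusted p = 0.00499), both lower in 8 of 8. *Elf3*, an epithelial ETS factor, rose in both, by 0.82 in *Smarcc1* (limma adjusted p = 0.0123, 0.0767 with the replicate block and 0.0943 without Smarcc1.7) and 1.42 in *Smarca4* knockdown (limma adjusted p = 0.000714), in 8 of 8 libraries each. In *Smarca4* knockdown *Cldn3*, another claudin, rose by 1.29 (limma adjusted p = 0.00154, 8 of 8) and *Rab25*, a GTPase of epithelial membrane traffic, by 1.15 (limma adjusted p = 0.000597, 8 of 8). In the direct contrast *Cldn3* differed by -1.02 and *Rab25* by -1.14 (limma adjusted p = 0.00314 and 0.000313). With a hairpin left out these were 0.0301 to 0.0605 for *Cldn3*, past the threshold in 1 of 4, and 0.0127 to 0.0317 for *Rab25*.

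Genes of the mesenchymal programme were read from a list of 36 effectors, 28 of them tested. In *Smarcc1* knockdown 3 rose and 9 fell (median -0.336), in *Smarca4* knockdown 0 rose and 5 fell (median -0.307), and in the direct contrast 3 were higher and 3 lower (median 0.00816). Of all genes 7.54% rose and 3.08% fell in *Smarcc1* knockdown, 4.75% rose and 1.96% fell in *Smarca4* knockdown, and 2.55% were higher and 1.54% lower in the direct contrast. With the replicate block the rises numbered 1 in *Smarcc1* knockdown and 2 in the direct contrast, and with a hairpin left out 1 to 4 and 1 to 2. Over all genes the calls in *Smarcc1* knockdown, *Smarca4* knockdown and the direct contrast were 605, 258 and 105 with the block, beside 1412, 892 and 544. With the replicate block the falls numbered 6, 3 and 0, without Smarca4.6 those in *Smarca4* knockdown numbered 2 (with 277 of all genes called), and with any 1 hairpin left out 0 were lower in the direct contrast. The largest falls were in the contractile genes *Tagln* (-1.46 in *Smarcc1* knockdown, limma adjusted p = 8.32e-05, and -1.23 in *Smarca4* knockdown, 0.000611, lower in 8 of 8 each) and *Acta2* (-1.22, limma adjusted p = 0.00263, 8 of 8, and -1.65, 0.000701, 7 of 8). *Msn*, encoding the membrane linker moesin, fell in both (log2 changes -0.90 and -0.91, limma adjusted p = 0.00518 and 0.00857, the latter 0.058 without Smarca4.6), in 8 of 8 libraries each. *Cald1* (caldesmon) fell in *Smarcc1* knockdown (-0.81, limma adjusted p = 0.00496, 8 of 8) and *Cd44*, a hyaluronan receptor, in *Smarca4* knockdown (-1.05, limma adjusted p = 0.0411, 8 of 8). The *Cd44* call was lost with the replicate block (0.195), without a filter (0.0844) and on leaving out Smarcc1.6 (0.0678), Smarcc1.7 (0.0697), Smarca4.4 (0.228), Smarca4.6 (0.0983) or the day 5 library of Smarca4.4 (0.0508).

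The mesenchymal genes that rose in *Smarcc1* knockdown were *Mmp9*, a matrix protease (1.5, limma adjusted p = 7.41e-05), the growth factor receptor gene *Pdgfra* (1.38, limma adjusted p = 0.00527) and the collagen gene *Col1a1* (1.32, limma adjusted p = 0.0423), each higher in 8 of 8. *Pdgfra* was lost with the replicate block (0.0554) and without Smarcc1.7 (0.0753). *Col1a1* was lost with the block (0.178), with a filter of 10 rpm (0.0712), with voom (0.0596) and on leaving out Smarcc1.7 (0.183), Smarca4.4 (0.0762), Smarca4.6 (0.0757) or the day 5 library of Smarca4.4 (0.0571).

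Most genes of both lists rose over the days. From day 4 to day 7, 29 of 36 epithelial genes rose and 3 fell (median 1.97), and 24 of 28 mesenchymal effectors rose and 0 fell (median 2.78), while 35.7% of all genes rose and 28.8% fell (median 0.0828). In the same interval *Vim* and *Zeb1* fell and *Fn1* was not called.

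**Figure D4:**
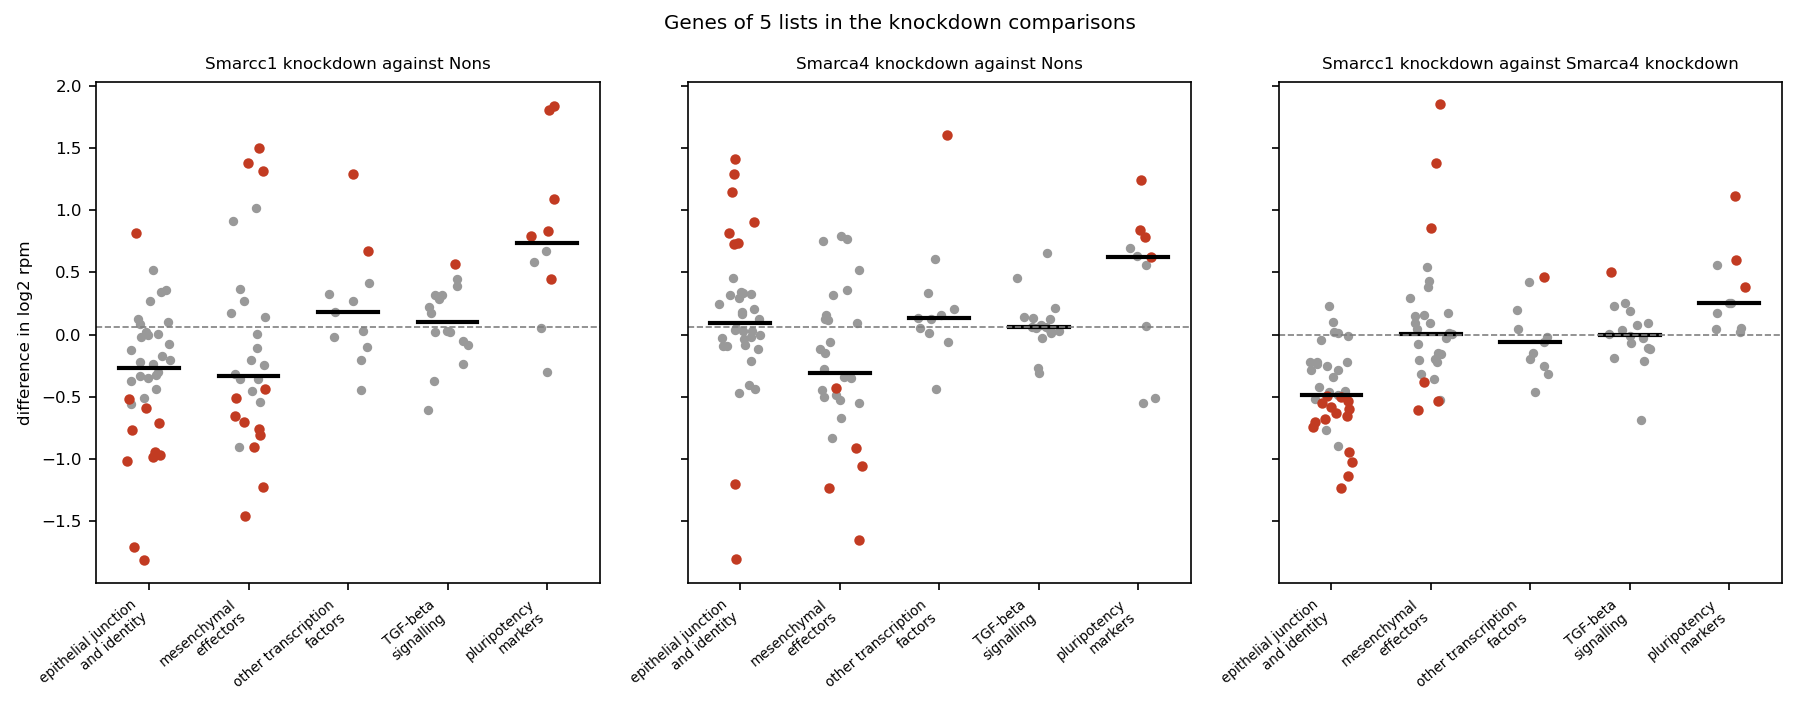
Difference in log2 rpm (vertical axis) of each tested gene of 5 lists in the 3 knockdown comparisons. Each point is 1 gene, red where the adjusted p was under 0.05, black bars are list medians and the dashed line is the median of all genes. In the direct contrast 15 of 36 epithelial genes were lower in *Smarcc1* knockdown and 0 higher.

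Of 21 other transcription factors of the switch, 11 were tested. In *Smarcc1* knockdown 2 rose and 0 fell (median 0.178), among them the Krüppel-like gene *Klf8* (0.67, limma adjusted p = 0.00419, 0.0509 without Smarcc1.7), higher in 8 of 8. In *Smarca4* knockdown 1 rose and 0 fell (median 0.131). Of all genes 7.54% and 4.75% rose. From day 4 to day 7, 1 rose (0 to 5 over 10 settings, the 5 without a filter, where 21 were tested) and 4 fell (4 to 6), with 64.5% of all genes called. Of 20 genes of TGF-beta signalling, which can induce the switch, 16 were tested: 1 rose in *Smarcc1* knockdown, 0 in *Smarca4* knockdown, and 0 fell in either (median 0.0991 and 0.0639), beside 7.54% and 4.75% of all genes that rose. The riser was the ligand gene *Nodal* (0.56, limma adjusted p = 0.00897, 8 of 8), lost with the replicate block (0.0516), on centring (0.0572) and without Smarcc1.6 (0.0656). From day 4 to day 7, 8 of these 16 rose and 3 fell (1 without Smarcc1.7), near the 64.5% of all genes called. Of 7 classical cadherins 4 were tested, and the call in either knockdown was *Cdh2*, lower, beside 3.08% and 1.96% of all genes lower. With the replicate block neither *Cdh2* call was kept (limma adjusted p = 0.15 and 0.0596). *Cdh1* and *Cdh3*, which encodes P-cadherin and is named after its values were seen, rose from day 4 to day 7 (0.70 and 1.31). In that interval 35.7% of all genes rose.

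Some markers of cell types moved as well. Of the pluripotency genes 6 of 10 were called higher in *Smarcc1* (median 0.733) and 4 of 10 in *Smarca4* knockdown (median 0.624), with 0 lower, beside 7.54% and 4.75% of all genes higher. Not called in either were *Pou5f1* (0.05 and -0.51), *Tdgf1* (-0.30 and -0.55), *Dppa5a* (0.67 and 0.63) and *Tfcp2l1* (0.58 and 0.56), and 3 of 10 were higher in *Smarcc1* knockdown in the direct contrast, beside 2.55% of all genes. Fewer of all genes were called in the recounts that follow as well, 420 and 277 in *Smarca4* knockdown without Smarca4.4 and Smarca4.6, and in the direct contrast 105 with the block and 49 to 263 with a hairpin left out. The count of 4 was 2 without Smarca4.4 and 1 without Smarca4.6, and the count of 3 was 1 with the replicate block, 0 without Smarcc1.6, 2 without Smarcc1.7 and 1 without either *Smarca4* hairpin. *Esrrb* was at 1.84 and 1.24 (limma adjusted p = 6.9e-05 and 0.00181) and *Nanog* at 1.09 and 0.84 (limma adjusted p = 0.000591 and 0.00554), higher in 8 of 8 libraries each. The *Nanog* call in *Smarca4* knockdown was lost without Smarca4.4 (0.0602) or Smarca4.6 (0.109). Higher in 8 of 8 as well were *Klf4* (1.81) and *Zfp42* (0.83) in *Smarcc1* knockdown, and *Zfp42* (0.78) and *Dppa4* (0.62) in *Smarca4* knockdown. Of these, *Zfp42* in *Smarca4* knockdown was lost without Smarca4.6 (limma adjusted p = 0.0861), and *Dppa4* with the block (0.0857), on centring (0.0795) and without Smarca4.4 (0.102) or Smarca4.6 (0.179). The part of these markers in the results on the switch genes was not tested.

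Markers of each differentiated type summed to less than those of pluripotency in every library. On day 7 Nons reached 190 rpm for trophoblast (*Krt7* 154), 135 for neural (*Nes* 118) and 102 for extraembryonic endoderm, beside 1001 for pluripotency. Markers of extraembryonic endoderm summed to 19.1 to 112 rpm over the 20 libraries (medians 34.2, 41.9 and 31.2 rpm in Nons, *Smarcc1* and *Smarca4* knockdown). They were led by *Col4a1* in 17, with *Ttr* at 0 in 9 libraries and *Foxa2* at 0 in 5. In *Smarcc1* knockdown 3 of 6 tested were higher (*Lama1* 1.27, *Cubn* 1.17, *Gata4* 1.14), in *Smarca4* knockdown 1 of 6 (*Gata4* 0.89). With hairpin series as a replicate block none of these endoderm calls was kept. Of all genes 7.54% were higher and 3.08% lower in *Smarcc1* knockdown, and 4.75% and 1.96% in *Smarca4* knockdown. The endoderm markers named as higher were above same-day Nons in 8 of 8 libraries, except *Lama1* (7 of 8) and *Gata4* (6 of 8 in each knockdown). Mesoderm markers summed to 7.34 to 43.3 rpm (medians 13.6, 19.0 and 20.9, in the same order), led by *Eomes* in 16, with *Mesp1* at 0 in 10. In either knockdown 2 of 5 were higher, *Pdgfra* and *Gata4* in *Smarcc1*, *Hand1* (1.35) and *Gata4* in *Smarca4* knockdown. The block ended all of these mesoderm calls, that of *Pdgfra* included (limma adjusted p = 0.0554). Trophoblast markers summed to 28.3 to 190 rpm (medians 42.0, 43.5 and 61.3), led by *Tfap2c* in 11, with *Tpbpa* at 0 in 15 and *Elf5* at 0 in 6. *Tfap2c* was higher in both knockdowns (0.91 and 0.84), *Krt7* lower in *Smarcc1* (-1.02) and *Hand1* higher in *Smarca4* knockdown, so that 1 of 5 was higher and 1 lower in the former and 2 higher in the latter, each in 8 of 8 libraries.

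Neural markers summed to 57.9 to 182 rpm (medians 107, 112 and 95.4), led by *Tubb3* in 10 libraries and by *Nes* in the others, with *Fabp7* at 0 in 12. Among them 1 of 4 was higher in either knockdown, *Sox1* (2.40 and 2.33), beside 7.54% and 4.75% of all genes higher, with 3.08% and 1.96% lower. Fibroblast markers summed to 6.37 to 129 rpm (medians 14.9, 13.6 and 11.4). They were led by *Thy1* in 11, with *Prrx1* at 0 in 18, *Lum* in 15 and *Postn* in 13. On day 7 they summed to 59.8 rpm in Nons, 129 and 106 in Smarcc1.6 and Smarcc1.7, and 49.0 and 31.2 in Smarca4.4 and Smarca4.6. *Dcn* was lower in both knockdowns (-2.95 and -2.37), and with *Col1a1* 1 of 5 was higher and 1 lower in *Smarcc1*, and 1 lower in *Smarca4* knockdown. Over 9 settings the *Dcn* values ran from -3.46 to -1.68 and from -2.56 to -1.51, and 1 *Smarcc1* knockdown library had 0 *Dcn* reads. Blood and endothelial markers summed to 11.1 to 78.4 rpm (medians 24.9, 59.0 and 30.9), led by *Pecam1* in 17, with *Hbb-bh1* at 0 in 20 and *Ptprc* in 17. *Pecam1*, which embryonic stem cells also carry, was higher in *Smarcc1* knockdown (1.68), 1 of 2 tested, and 0 of 2 were called in *Smarca4* knockdown.

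Several of these marker calls were lost under other settings. The hairpin series as a block ended the calls of *Lama1*, *Cubn*, *Hand1*, *Gata4* in both knockdowns and *Dcn* in *Smarca4* knockdown (limma adjusted p = 0.191, 0.0957, 0.174, 0.0522 and 0.205, and 0.0962). In *Smarcc1* knockdown, leaving out Smarcc1.7 ended those of *Lama1* (0.193), *Cubn* (0.065) and *Gata4* (0.0718), and *Lama1* was also lost after quantile normalization (0.0602) and without Smarca4.4 (0.0943) or Smarca4.6 (0.0939). In *Smarca4* knockdown *Gata4* was lost without any 1 hairpin (0.0551 to 0.217), without a filter (0.0968), with group plus day (0.12) and after quantile normalization (0.0699), *Hand1* without Smarcc1.6 (0.0587) or Smarcc1.7 (0.0578), *Dcn* without Smarca4.4 (0.094) or Smarca4.6 (0.169), and *Tfap2c* without Smarca4.6 (0.0612). The part of these markers was not tested either.

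Between days 4 and 7, 4 of 6 endoderm markers, 3 of 5 mesoderm, 2 of 5 trophoblast, 1 of 4 neural and 3 of 5 fibroblast markers rose, and 1 trophoblast, 1 neural, 1 fibroblast and 1 of 2 blood and endothelial markers fell, beside 35.7% of all genes that rose and 28.8% that fell.

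The genes whose levels ran most like each switch gene over the 20 libraries, by Pearson r on log2 rpm, are given as a description. The libraries of a series share a hairpin and those of a day share that day, and the labels do not say which shared a culture. For *Zeb1* they were *Nckap1l* (r = 0.955), *Bnc2* (0.953) and *Cass4* (0.948), for *Cdh1* *Bcar1* (0.936), *Ddr1* (0.934) and *Galnt10* (0.931), and for *Epcam* *Dhrs3* (0.93), *Arrdc1* (0.906) and *Arhgap8* (0.892). For *Cdh2* they were *Msn* (0.879), *Cntfr* (0.872) and *Kctd3* (0.859), for *Fn1* *N4bp1* (0.935), *Midn* (0.935) and *Usp19* (0.929), and for *Vim* *Fam105b* (0.879), *Fam43a* (0.879) and *Eif4h* (0.874). For *Snai1* they were *Stau1* (0.902) and *Elf4* (0.889), and for *Twist1* *Anxa4* (0.903), *Zfp688* (0.888) and *Laptm4b* (0.882).

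Over the same 20 libraries *Epcam* ran with *Twist1* (r = 0.823) and opposite to *Zeb1* (-0.816), and *Zeb1* opposite to *Twist1* (-0.718). *Snai1* ran with *Zeb2* (0.755) and *Vim* with *Fn1* (0.689), whereas *Zeb1* and *Cdh1* gave -0.397 and *Cdh1* and *Cdh2* gave 0.597. These values take in the course over days, which all series share.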

How the data were processed

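RNA-seq of differentiating male mESCs was analysed in 20 libraries, grouped by the hairpin and day in the sample titles. The authors trimmed the reads, aligned them to mm10 (the labels list HISAT2) and deposited log2 rpm values per gene from SeqMonk, 1 column per library. The annotation release and use of strand are not given in the sources used here. Whole reads were recovered from the lowest value of each library. All values below 1000 reads came out whole within 0.05 of a read (100%). Precision is set by these reads, and 3 reads, the smallest number told from none, are worth 0.109 to 0.439 rpm.

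Tests used limma 3.58.1 in R 4.3.3 (lmFit, eBayes with trend, two-sided) with 12 group by day means, a filter of mean log2 rpm of at least 0 and Benjamini-Hochberg adjustment. The fitting code was tested on simulated data. Exon lengths and positions are from GENCODE for GRCm38, the same assembly as mm10. Python 3.11.15, numpy 2.4.6, pandas 2.3.3 and matplotlib 3.10.9 were also used. Genes named from the lists are, per knockdown, up to 4 called in each direction with the largest change and both hairpins on the same side of Nons, and the 3 genes most like each switch gene; some genes that met these rules are not reported here. The genes, lists and rules were chosen with earlier results of these data known. Alternatives were other filters, 1 added to rpm, centring, quantile normalization, a common lowest value, limma-voom and group plus day. Further alternatives were a replicate block of the hairpin series, leaving out each hairpin and leaving out the smallest library. Recounting the lists under them was chosen after seeing the data. The table holds 66 duplicated gene names, and no switch gene is among them.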

Additional observations from a re-analysis of the deposited data

Results flagged for a closer look

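The results here are for 41 tested genes, namely the switch genes, both targets and the genes picked from the lists and markers by their change against Nons. Of these, 18 differed between the *Smarcc1* and *Smarca4* knockdowns when both were set directly against each other by limma. As most were picked for a large change, this share cannot be read against the 4.09% of all genes. With hairpin series as a block 9 of the 18 were still called, and with a hairpin left out 6 to 10. The 1 switch gene among the 18 was *Zeb1* (log2 difference 1.32). The targets were *Smarcc1* (-1.54) and *Smarca4* (2.06). Epithelial genes, all lower in *Smarcc1* knockdown, were *Elf3* (-0.60), *Perp* (-0.50), *Crb3* (-0.58), *Cldn3* (-1.02) and *Rab25* (-1.14). Other genes of the switch were *Klf8* (0.47), *Mmp9* (1.38), *Pdgfra* (0.86), *Cald1* (-0.54) and *Nodal* (0.50). Among the markers were *Esrrb* (0.60), *Klf4* (1.11), *Cubn* (1.66), *Krt7* (-0.73) and *Pecam1* (1.32). Over all genes 544 differed, and 105 when hairpin series was entered as a block. Of all genes 2138 had an unadjusted p under 0.05.

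For the change from day 4 to day 7 between *Smarcc1* knockdown and Nons, the interaction test called 61 of all genes (0.459%). By the same test 1034 of all genes had an unadjusted p under 0.05. Among the 41 genes, most picked for a large change and so not to be read against that share, 2 differed: *Perp* (-2.19) and *Pecam1* (2.77). Neither was called on leaving out any 1 hairpin (adjusted p = 0.146 to 0.251 and 0.0828 to 0.273) or after quantile normalization (0.157 and 0.0762), and *Perp* was also lost with the 10 rpm filter (0.0548) and on centring (0.0525). Both were called with the block. For *Smarca4* knockdown 0 of the 41 differed by limma, with 556 of all genes at an unadjusted p under 0.05 and 11 called. These contrasts rest on 1 Nons library per day.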

How the results depend on the processing

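*Zeb1* in *Smarcc1* knockdown kept its direction and its call in all 10 alternatives and with each hairpin left out. Between knockdowns the *Zeb1* difference of 1.32 ran from 0.991 to 1.65 with a hairpin left out. The 6 genes called from day 4 to day 7 kept their direction throughout. The cause of the changes below was not tested, except that a 10 rpm filter tests fewer genes (9307) and drops *Snai1*, *Twist1* and *Cdh2*.

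With a mean of at least 10 rpm, genes called numbered 579 (*Smarcc1* against Nons), 324 (*Smarca4* against Nons), 241 (between knockdowns), 3420 (day 5 against day 4), and 11 and 0 (change from day 4 to day 7), beside 1412, 892, 544, 5147, 61 and 11, and switch genes called 1, 0 and, from day 6 to day 7, 1. The change from day 4 to day 7 gave 19 and 0 genes with 1 added to rpm, 6 and 0 after quantile normalization, and for *Smarca4* 1 without a filter, 2 with a common lowest value and 4 with voom. Group plus day called 4 switch genes from day 6 to day 7. Without the day 5 library of Smarca4.4 the knockdowns differed in 1067 genes and 3 switch genes.

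The replicate block was the hairpin series (correlation 0.217), and the labels do not say whether its days shared a culture. It gave 605, 258 and 105 genes in the knockdown comparisons, 175 and 20 for the change from day 4 to day 7, and called 1 and 0 switch genes against Nons and 4 from day 6 to day 7. Hairpin numbers are names and pair no cultures across groups. Within a gene's hairpins, deviations correlated between days at 0.0233 to 0.823 (mean 0.331, 6 day pairs) for *Smarcc1* and -0.206 to 0.367 (mean 0.0932) for *Smarca4*.

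With a hairpin left out, where the arm's lone library was assumed to vary like the others, genes called ranged from 843 to 1288 (*Smarcc1* against Nons), 277 to 656 (*Smarca4* against Nons), 49 to 263 (between knockdowns), 7586 to 8118 (day 7 against day 4), 3179 to 5030 (day 5 against day 4), 2869 to 3287 (day 6 against day 5), 1061 to 4031 (day 7 against day 6), and 0 to 8 and 0 to 0 (change from day 4 to day 7). Switch genes called ranged, in the same order, from 1 to 3, 0 to 1, 0 to 1, 5 to 7, 3 to 5, 0 to 1 and 1 to 3, and 0 to 0 for both changes from day 4 to day 7.

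Signs reversed only in uncalled values. *Vim* in *Smarcc1* knockdown was at -0.0143 on centring and -0.00994 after quantile normalization, and with a hairpin left out at -0.0216 (without Smarcc1.6) to 0.109. With a hairpin left out *Vim* ranged from -0.0587 (without Smarca4.4) to 0.323 in *Smarca4* knockdown, and from -0.28 to 0.102 (without Smarca4.4) between knockdowns. *Fn1* between knockdowns was at 0.00979 after quantile normalization and 0.0346 without the day 5 library of Smarca4.4, and with a hairpin left out at -0.517 to 0.459 (without Smarcc1.6; 0.144 without Smarca4.4). In *Smarcc1* knockdown *Fn1* ranged from -0.945 to 0.0306 (without Smarcc1.6) and *Smarca4* from -0.0343 (without Smarcc1.7) to 0.568. Depth limits *Zeb2*, *Snai2* and *Cdh2* most, with as few as 0, 4 and 5 reads.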
